A study of Arabidopsis thaliana with 4 samples.

Results

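The transcripts described here are those of the plastid genome of Arabidopsis thaliana, measured in single root protoplasts. They were chosen as the gene rows whose Arabidopsis Genome Initiative (AGI) code begins with ATCG, the prefix of the plastid chromosome, and that had at least 1 unique molecular identifier (UMI, a tag that marks 1 captured RNA molecule) in any library. Of 133 such rows, 106 had a UMI, among 32833 gene rows in all. Protoplasts came from cut primary root tips of seedlings grown in continuous light for 4 to 5 days after germination. There was 1 droplet library of 3′ transcript ends for each of 4 transgenic reporter lines, pWER:GFP (batch 1), pCORTEX:GFP (batch 2), the enhancer trap PET111 (batch 3) and pSCR:GFP (batch 4), and each held the various cell types of the root. Line and batch cannot be told apart. No line has a second library, so lines were not tested against each other and values are given side by side for each library, with intervals that cover counting error only.

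Plastids descend from a cyanobacterial endosymbiont and keep a small circular genome. It encodes subunits of the photosystems and other thylakoid complexes, part of the plastid ribosome, a bacterial-type RNA polymerase, transfer and ribosomal RNAs and a few enzymes and proteases, while nuclear genes supply most plastid proteins. Root cells hold non-green plastids, and the columella of the root cap is known for amyloplasts, starch-filled plastids that settle with gravity. Plastid messenger RNAs mostly lack the long poly(A) tails on which this chemistry primes, so the libraries capture them incompletely and to a different degree for each gene. UMI counts are compared between genes only as counts, since they were not divided by length and tail-primed reads do not scale with length.

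The 4 tables held 41823 barcodes. In the order of batches, the libraries had 208973259, 306361336, 163920194 and 160953229 UMIs, with medians of 3968, 6303, 1943 and 4278 UMIs per barcode. Between 27 and 35 barcode sequences were shared by any pair of libraries. Organelle UMIs, plastid and mitochondrial together, exceeded 10% of the total in 1076 to 2788 barcodes per library. These barcodes were kept in the main values.

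Plastid transcripts were a small part of each library. They made up 0.147% of UMIs for pWER:GFP (exact Clopper-Pearson 95% interval 0.147% to 0.148%), 0.0898% for pCORTEX:GFP (0.0894% to 0.0901%), 0.132% for PET111 (0.132% to 0.133%) and 0.185% for pSCR:GFP (0.184% to 0.186%). The mean over libraries was 0.139% ± 0.0394 (SD, n = 4 libraries). The pSCR:GFP library had the highest share and pCORTEX:GFP, the most deeply sequenced, the lowest. Mitochondrial transcripts took 1.33%, 1.44%, 2.61% and 2.02% of UMIs in the same order of libraries, so the library with the highest mitochondrial share, PET111, was not the one with the highest plastid share.

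The share was very uneven across barcodes. The median barcode had 0.0780% plastid UMIs for pWER:GFP, 0.0735% for pCORTEX:GFP, 0.105% for PET111 and 0.0869% for pSCR:GFP, while the 95th percentile lay between 1.11% and 1.53% and the highest single barcodes reached 22.5% to 36.1%. Between 15.4% and 17.2% of barcodes had no plastid UMI, and the median barcode had 3 to 8. Barcodes at or above 1% plastid UMIs numbered 575 for pWER:GFP, 737 for pCORTEX:GFP, 706 for PET111 and 852 for pSCR:GFP. They were 5.86% to 8.09% of barcodes and held 22.1% to 33.5% of all plastid UMIs. The richest 1% of barcodes by plastid count alone held 16.5% to 21.6% of plastid UMIs, against 9.86% to 11.4% of mitochondrial UMIs in the richest 1% by mitochondrial count. No root cell type lacks plastids, so no class of barcodes gave a level for plastid RNA from the surrounding fluid, and its part in low counts was not tested.

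A short list of genes carried most plastid UMIs. The 10 with the highest counts held 61.8% of plastid UMIs for pWER:GFP, 65.0% for pCORTEX:GFP, 62.2% for PET111 and 59.6% for pSCR:GFP, and 30 to 32 genes were enough for 90%. Of 11 genes that were among the 10 highest in any library, 8 were so in all 4. Over the 71 genes with at least 100 UMIs in every library, Pearson's correlation of the log2 shares between libraries was 0.982 to 0.996 (across genes, which are not independent replicates). At the other end, 46 of the 106 members had fewer than 1000 UMIs in the 4 libraries together, 11 had fewer than 10, and 6 were seen in 1 library only.

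The reference annotation pairs 6 of the 106 codes with a protein, through notes on related nuclear genes, and the other members are given by their codes. The gene with the highest mean share was ATCG00450, with 10.1% of plastid UMIs for pWER:GFP, 11.8% for pCORTEX:GFP, 8.51% for PET111 and 9.58% for pSCR:GFP. It ranked first in 3 libraries and second in PET111. The leader in PET111 was ATCG00670, annotated as the plastid-encoded ClpP, the proteolytic subunit of the Clp protease of the stroma. ClpP had 24496 UMIs for pWER:GFP, 22677 for pCORTEX:GFP, 20219 for PET111 and 24862 for pSCR:GFP, which were 7.97%, 8.25%, 9.32% and 8.35% of plastid UMIs. A UMI of ClpP was found in 39.7% to 49.3% of barcodes. ATCG00720 stood between ATCG00450 and ClpP by mean share, with 8.26% to 9.91% of plastid UMIs and rank 2 or 3 in every library. It was below both in PET111 and pSCR:GFP. ATCG01130, ATCG00030 and ATCG00790 followed with mean shares of 6.48% ± 0.538, 5.93% ± 0.890 and 5.53% ± 0.694 (SD, n = 4 libraries), whose ranges over libraries overlap.

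The next genes varied more between libraries. ATCG00500 had 4.48%, 3.25%, 4.29% and 5.65% of plastid UMIs in the order of batches, lowest in pCORTEX:GFP. ATCG00470 had 3.13%, 5.35%, 4.57% and 3.40% in the same order, and ATCG00100 had 3.15%, 5.44%, 4.06% and 2.67%, both highest in pCORTEX:GFP. ATCG00400 kept between 3.36% and 4.59%, and ATCG00040 between 2.64% and 4.13%. The plot of shares by gene shows that the first 3 genes stand above the rest in all 4 libraries.

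**Figure D1:**
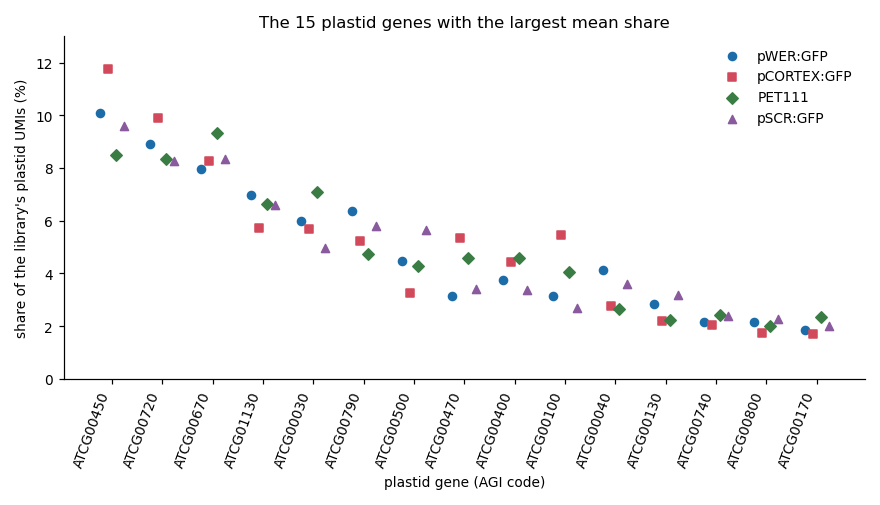
Share of each library's plastid UMIs (y axis, %) taken by the 15 plastid genes with the largest mean share, with 1 point per library. ATCG00450, ATCG00720 and ATCG00670 lie between 7.97% and 11.8% in all 4 libraries, and every other gene lies below them.

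The remaining annotated members were less abundant. ATCG00660, annotated as ribosomal protein L20 of the large ribosomal subunit, had 0.763% to 1.03% of plastid UMIs, and ATCG00750, ribosomal protein S11 of the small subunit, had 0.245% to 0.360%. ATCG00530, annotated as related to the proton extrusion protein CemA, had 0.520% to 0.875%. ATCG00430, which such a note names photosystem II reaction center protein G, had 48 to 87 UMIs per library, and the role in that name was not checked. ATCG01310, annotated as ribosomal protein L2, was close to absent, with 0, 3, 2 and 1 UMIs. It belongs to a pair of code ranges, ATCG00840 to ATCG00990 and ATCG01140 to ATCG01310, whose 35 rows together had 157 UMIs of 1097245. Of the 27 plastid rows with no UMI, 26 lie in these ranges. Plastid genomes of this kind carry an inverted repeat, so that some genes exist as identical copies, and how the counting treated reads that match both copies is not given in the sources used here.

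Barcodes with few nuclear UMIs had a higher summed plastid share than barcodes with many. In pWER:GFP the share was 0.511% below 1000 nuclear UMIs, 0.558% from 1000, 0.344% from 2000, 0.231% from 5000 and 0.113% from 20000 upward. In pCORTEX:GFP the same ranges gave 0.820%, 0.564%, 0.418%, 0.176% and 0.0580%. The share peaked in the second range in pWER:GFP and was lower at each step in pCORTEX:GFP. In PET111 they gave 0.822%, 0.526%, 0.618%, 0.223% and 0.0753%, and in pSCR:GFP 0.444%, 0.484%, 0.520%, 0.259% and 0.117%. In these 2 libraries the share from 2000 to under 5000 nuclear UMIs was above that of the range before it, and in all 4 the deepest range was the lowest. The share below 2000 over the share from 20000 upward had a mean log2 ratio of 2.76 ± 0.71 (SD, n = 4 libraries). Nuclear UMIs set the ranges and are also part of the total that divides the share, so depth and share are coupled. With ranges of total UMIs the mean log2 ratio was 1.89 ± 0.74 (SD, n = 4 libraries).

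The median barcode did not show this difference to the same degree. Medians of the barcode shares in the 5 ranges were 0.103%, 0.0791%, 0.0651%, 0.0742% and 0.0853% in pWER:GFP. They were 0.114%, 0.0808%, 0.0702%, 0.0789% and 0.0553% in pCORTEX:GFP, and 0.131%, 0.0884%, 0.179%, 0.0814% and 0.0691% in PET111. In pSCR:GFP the lowest range, with 122 barcodes, had a median of 0 and the others 0.0672%, 0.115%, 0.0982% and 0.0873%. From medians, the log2 ratio of shallow over deep barcodes was -0.048 for pWER:GFP, 0.84 for pCORTEX:GFP, 0.81 for PET111 and -0.39 for pSCR:GFP, so its sign differed between libraries. Among barcodes with at most 10% organelle UMIs, the ratio of summed shares averaged 0.72 ± 0.26 (SD, n = 4 libraries). After thinning each barcode to 1000 UMIs, 45.8% to 58.9% of the deepest barcodes and 54.9% to 67.5% of those with 1000 to under 2000 nuclear UMIs still had a plastid UMI. Without thinning, 0.558% to 2.17% of the deepest and 22.8% to 33.1% of the shallower ones had none. Thinning left out 299, 1166, 2012 and 87 barcodes with fewer than 1000 UMIs. The summed mitochondrial share was also higher at the shallow end, at 12.8% to 38.9% below 1000 nuclear UMIs and 0.438% to 0.693% from 20000 upward. Between these ends it did not always move with the summed plastid share. In pWER:GFP it fell from 30.1% to 12.9% between the first and second ranges, where the plastid share rose. In PET111 and pSCR:GFP it fell to 13.5% and 8.78% in the third range, where the plastid share rose. In pCORTEX:GFP both shares fell at each step. The part of mitochondrial content in the depth pattern was not tested.

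**Figure D2:**
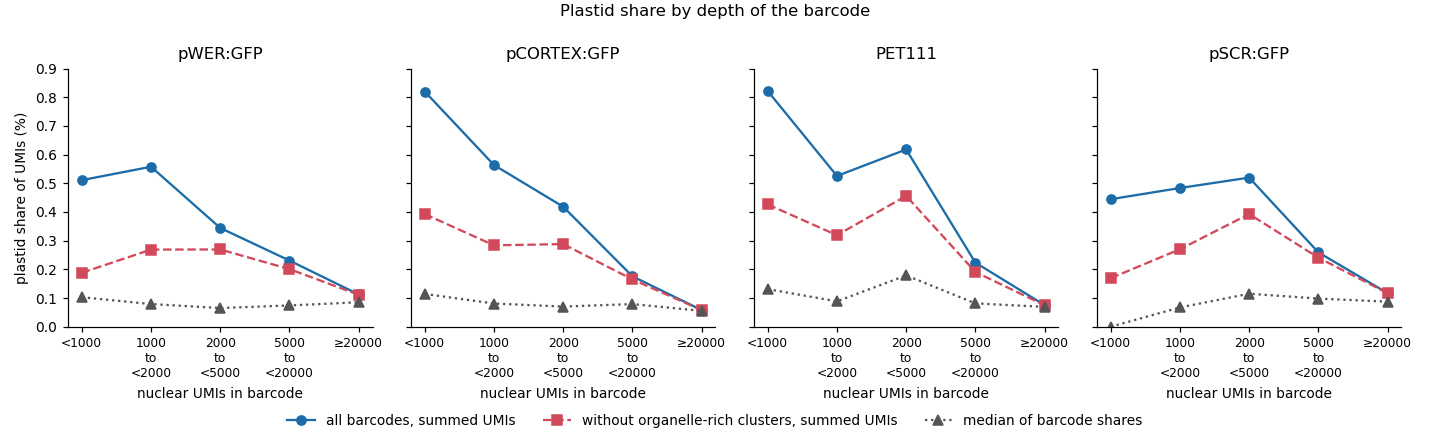
Plastid share of UMIs (y axis, %) in 5 ranges of nuclear UMIs per barcode (x axis), 1 panel per library. Summed shares (blue) reach 0.820% in pCORTEX:GFP and 0.822% in PET111 below 1000 nuclear UMIs, lie lower without the organelle-rich clusters (red), and medians of barcodes (grey) stay at or below 0.179%.

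Most plastid genes shared the difference in summed level. In plastid UMIs per 1000000 nuclear UMIs, with 5 added on both sides, 56 of 71 plastid genes with at least 100 UMIs were at least 2-fold higher below 2000 than from 20000 nuclear UMIs upward in pWER:GFP, where 5.12% of all tested genes were. The counts were 67 of 72 for pCORTEX:GFP against 8.19% of all genes, 67 of 71 for PET111 against 5.34%, and 57 of 72 for pSCR:GFP against 4.89%. No plastid gene was 2-fold lower, where 1.56%, 2.09%, 2.57% and 1.38% of all genes were. Of the mitochondrial genes, 45 of 47, 48 of 49, 47 of 49 and 45 of 47 were 2-fold higher, a share at least as large as that of the plastid genes. The median log2 ratio was 1.83, 2.66, 2.59 and 1.55 over the plastid genes and 0.11, 0.16, 0.10 and 0.08 over all genes tested.

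The clusters with the highest plastid levels were led by genes of a nuclear copy of the mitochondrial genome. Each library was clustered on nuclear genes alone, with plastid and mitochondrial rows left out. In every library 1 cluster (2 in pSCR:GFP) was led by genes of a stretch of chromosome 2 that is known to carry a copy of the mitochondrial genome, such as AT2G07725 and AT2G07718, which held all of its 10 genes of highest fold. Genes of this stretch were kept in the clustering, and their reads cannot be told apart from those of the mitochondrial genome. Because the clusters were picked by these genes, their high mitochondrial share follows in part from the choice. These organelle-rich clusters stayed unnamed and had 420 barcodes for pWER:GFP, 488 for pCORTEX:GFP, 414 for PET111 and 539 for pSCR:GFP. Their plastid level was 45618 UMIs per 1000000 nuclear UMIs for pWER:GFP, 58314 for pCORTEX:GFP, 62738 for PET111 and 30379 for pSCR:GFP, against 1333, 788, 1075 and 1674 in the other clustered barcodes. All 4 clusters or pairs stood 18.1-fold to 74.0-fold above the rest, and the order was the same for medians of barcodes, at 12141, 24401, 35690 and 10178 per 1000000, against 778, 718, 1068 and 850.

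The same barcodes had few nuclear UMIs, a depth to which organelle UMIs do not add, and were rich in mitochondrial transcripts. Their median depth was 1187, 729, 826 and 1653 nuclear UMIs, against 3931, 6974, 1535 and 4222 in the rest, and mitochondrial transcripts took 43.1%, 52.7%, 53.6% and 36.2% of their UMIs, against 1.05%, 1.12%, 1.90% and 1.60%. They held 11.04% of plastid UMIs in pWER:GFP, 12.6% in pCORTEX:GFP and 18.8% in PET111, and the 2 clusters of pSCR:GFP held 7.95% and 4.20%, so most plastid UMIs lay outside them. One cluster of 29 barcodes in pSCR:GFP reached 192373 plastid UMIs per 1000000 nuclear UMIs. Marker sums in them were set against clustered barcodes outside both these and the columella-like clusters. The 5 columella markers named below summed to 24.2, 67.1, 36.9 and 14.3 per 1000000, against 20.06, 12.5, 10.4 and 35.5. Leaving the columella-like clusters out lowers the latter values, so the small difference in pWER:GFP gives no direction against all other barcodes. Root cap markers summed to 101, 111, 60.0 and 65.5 in the organelle-rich clusters, against 200.1, 158, 140.2 and 210.2. Stele and pericycle markers were higher in them in all 4 libraries, at 84.7, 235, 172 and 93.2, against 58.4, 82.8, 90.7 and 72.5, and endodermis markers lower, at 112, 381, 521 and 141, against 692, 2410, 2209 and 1010. The part of these markers, low depth and mitochondrial content in their plastid level was not tested. Without these clusters the summed share of plastid UMIs averaged 0.121% ± 0.0363 and the log2 ratio of shallow over deep barcodes 1.80 ± 0.68 (SD, n = 4 libraries).

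The make-up of the plastid transcripts differed there from the other clustered barcodes. Of 71 plastid genes with at least 100 UMIs in every library, 39 took a higher and 16 a lower share of plastid UMIs in all 4 libraries. ATCG00170 took 3.93% of plastid UMIs in the organelle-rich cluster of pWER:GFP, 3.24% in that of pCORTEX:GFP, 4.01% in that of PET111 and 4.58% in those of pSCR:GFP, against 1.61%, 1.43%, 1.89% and 1.63% in the other barcodes. It was the single gene at least 2-fold higher in all 4 libraries. Its code neighbours ATCG00180 and ATCG00190 had mean log2 ratios of 1.16 ± 0.24 and 1.08 ± 0.22 (SD, n = 4 libraries). ATCG00450, the leading gene of the libraries, took 5.26%, 5.36%, 2.87% and 4.00% in the organelle-rich clusters, against 10.7%, 12.7%, 10.0% and 10.4% in the rest, so that ClpP with 10.0%, 9.78%, 10.3% and 10.3% led it in each. ATCG00220 had the lowest mean log2 ratio, -1.86 ± 0.19, from 42 to 64 UMIs per library. ATCG01020 took 0.613%, 0.544%, 0.613% and 0.600% there, against 1.54%, 1.62%, 1.23% and 1.34%. These genes were picked from both ends of the list after their values were seen. Shares within 1 total depend on each other, so a lower share does not show a lower level.

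With the organelle-rich clusters left out, shallow barcodes still had another make-up than deep ones, and in part the opposite one. ATCG00450 took 18.3% of plastid UMIs in barcodes under 2000 nuclear UMIs for pWER:GFP, 15.1% for pCORTEX:GFP, 11.7% for PET111 and 12.5% for pSCR:GFP, against 7.69%, 9.97%, 7.81% and 6.68% from 20000 upward. Its share was thus lower than elsewhere in organelle-rich clusters and higher in the other shallow barcodes. ATCG00100 had 5.32%, 7.26%, 5.70% and 4.11%, against 2.44%, 4.50%, 3.63% and 1.98%. ATCG01020 had 0.848%, 0.807%, 0.624% and 0.767% in shallow barcodes, against 1.84%, 2.07%, 1.58% and 1.85%, and ATCG00470 had 2.07%, 3.03%, 2.99% and 3.05%, against 3.66%, 7.09%, 6.23% and 4.18%. In all, 32 of the 71 genes took a higher and 20 a lower share in shallow barcodes in all 4 libraries.

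**Figure D3:**
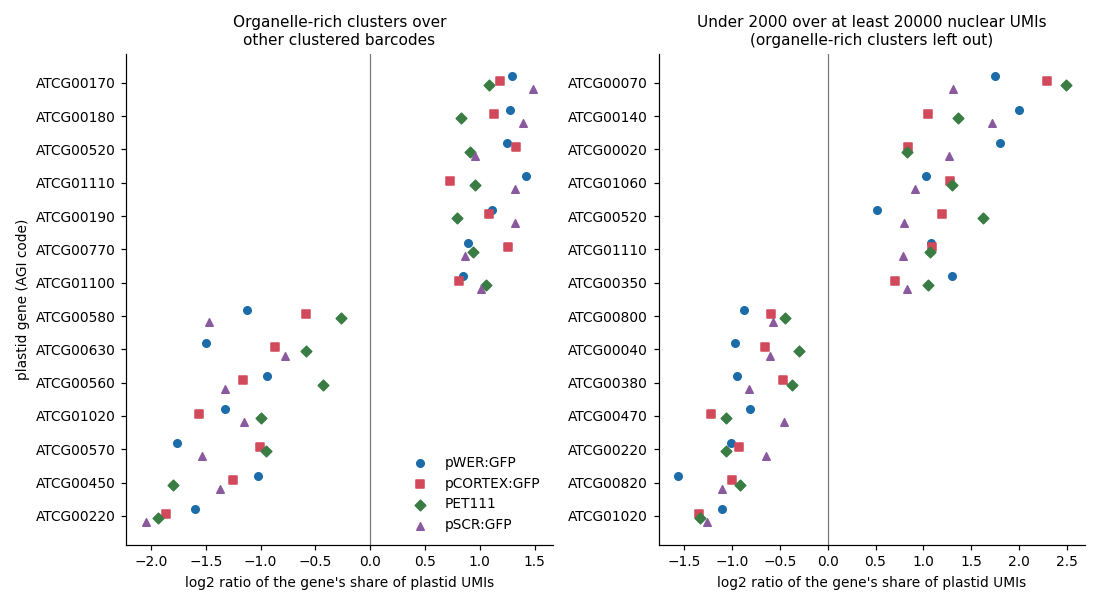
Log2 ratio of each gene's share of plastid UMIs (x axis) for the 7 genes highest and the 7 lowest by mean ratio among those on 1 side of 0 in all 4 libraries, with 1 point per library. ATCG00450 lies between -1.80 and -1.02 in the organelle-rich clusters, and ATCG01020 lies between -1.56 and -0.997 over both panels.

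Among classes named by markers, columella-like barcodes had the highest plastid level in 3 of 4 libraries and the second highest in PET111. This ranking leaves out unnamed clusters. In pCORTEX:GFP an unnamed cluster of 446 barcodes stood slightly higher, at 3210 against 3186 per 1000000, and another of 313 barcodes had 3053. The latter had the columella marker LZY3 (AT1G19115) among its 10 first genes. Both count in the rest of the library to which columella-like barcodes are compared below. The marker list of columella-like barcodes was LZY2, LZY3 and LZY4, which act in the gravity response of the root, ARL2, a gravity signalling protein, and PIN3, an auxin exporter of the columella. All 5 had UMIs in the columella-like cluster of every library, where the list summed to 802, 1599, 654 and 642 per 1000000 nuclear UMIs, against 20.06, 12.5, 10.4 and 35.5 in the other clustered barcodes outside the organelle-rich ones. The clusters held 155 barcodes for pWER:GFP, 244 for pCORTEX:GFP, 372 for PET111 and 85 for pSCR:GFP. Root cap markers were present there too, at 294, 453, 334 and 178 per 1000000, against 200.1, 158, 140.2 and 210.2. Replicating markers were higher in the class in PET111, at 3189 against 1653, and in pSCR:GFP, at 880 against 715, and lower in the other libraries. Stele and pericycle markers were higher in pWER:GFP, at 88.7 against 58.4, and in pCORTEX:GFP, at 112 against 82.8. The part of these markers in the plastid level was not tested. Xylem and phloem markers were largely at 0, with 4 to 6 of 9 and 7 to 9 of 12 genes without a UMI.

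The plastid level of columella-like barcodes was 3388 UMIs per 1000000 nuclear UMIs for pWER:GFP (exact Poisson 95% interval 3302 to 3477), 3186 for pCORTEX:GFP (3117 to 3257), 3484 for PET111 (3422 to 3547) and 4467 for pSCR:GFP (4347 to 4589). The rest of each library had 1477, 882, 1279 and 1872. The class was 2.29-fold, 3.61-fold, 2.72-fold and 2.39-fold above it, a mean log2 ratio of 1.44 ± 0.30 (SD, n = 4 libraries). Medians of barcodes were 5613, 3911, 5137 and 2674 per 1000000, against 797, 742, 1089 and 900. Of columella-like barcodes 38.5% to 51.6% had at least 5000 plastid UMIs per 1000000 nuclear UMIs, against 11.3% to 18.5% of the rest. Mitochondrial transcripts were also higher, at 2.99%, 4.42%, 7.37% and 2.38% of UMIs against 1.31%, 1.31%, 2.26% and 2.01%. Among barcodes with at most 10% organelle UMIs, clustered anew, the log2 ratio was 1.19 for pWER:GFP with 104 columella-like barcodes, 1.84 for pCORTEX:GFP with 181, 1.16 for PET111 with 40 and 0.56 for pSCR:GFP with 216, against 1.197, 1.85, 1.45 and 1.25 among all. The ratio of pSCR:GFP was thus smaller by more than 1.5-fold under this limit.

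The excess was smaller in the deepest barcodes than in shallow ones in pWER:GFP, pCORTEX:GFP and PET111, and not in pSCR:GFP. With organelle-rich clusters out of the rest, the ratio from 1000 to under 2000 nuclear UMIs was 4.59-fold, 3.94-fold, 3.33-fold and 3.11-fold in the order of batches. The ratio from 5000 to under 20000 nuclear UMIs was 2.22-fold for pWER:GFP, 2.00-fold for pCORTEX:GFP, 2.03-fold for PET111 and 1.71-fold for pSCR:GFP. From 20000 upward it was 1.12-fold in pWER:GFP with 20 columella-like barcodes, against 2.89-fold with 23, 2.14-fold with 37 and 3.47-fold with 13 in the other libraries. Below 5000 nuclear UMIs it lay between 1.81-fold and 5.64-fold in every range that had at least 10 columella-like barcodes. At the lower cluster resolution of 0.5 the class grew to 830 barcodes in pSCR:GFP and the log2 ratio there was -0.0038, while pWER:GFP and pCORTEX:GFP gave 1.18 and 1.83, and PET111 gave 3.61 with a class grown to 760 barcodes.

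The higher level was shared by nearly all plastid genes but was not even. Of 71 genes with at least 100 UMIs in every library, 70 were above the other barcodes in all 4 libraries and 47 at least 2-fold so, with organelle-rich clusters out of the rest. The share of all genes was not counted on this measure, so these counts have no baseline. Counted gene by gene with 5 per 1000000 added and against all other clustered barcodes, 24 of 71 for pWER:GFP, 39 of 72 for pCORTEX:GFP, 33 of 71 for PET111 and 36 of 72 for pSCR:GFP were 2-fold higher, where 12.0%, 16.6%, 11.5% and 11.5% of all genes were. No plastid gene was 2-fold lower, where 7.65%, 10.5%, 8.93% and 10.7% of all genes were. The median log2 ratio was 0.86, 1.11, 0.97 and 1.02 over plastid genes and 0.15, 0.23, 0.22 and 0.12 over all genes tested. Of the mitochondrial genes 18 of 47, 33 of 49, 43 of 49 and 7 of 47 were 2-fold higher, a smaller share than of the plastid genes in pSCR:GFP and a larger one in the other libraries.

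ClpP was at 351, 314, 368 and 478 UMIs per 1000000 nuclear UMIs in columella-like barcodes, against 101, 61.0, 91.3 and 133 in the other barcodes, 3.49-fold to 5.14-fold higher. Ribosomal proteins L20 and S11 were 2.13-fold to 5.40-fold and 2.82-fold to 4.95-fold higher. The genes with the highest smallest ratio over libraries were of low abundance. ATCG00420, from 10 to 17 UMIs in columella-like barcodes, was 7.13-fold to 9.90-fold higher, and ATCG00710, from 12 to 46 UMIs, was 6.13-fold to 17.3-fold higher. ATCG00350 had 36, 63, 63 and 21 UMIs and was 9.72-fold, 14.3-fold, 9.78-fold and 6.10-fold higher. ATCG00680, with 46 to 117 UMIs, was 5.12-fold to 9.35-fold higher.

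ATCG00500 was the single exception. It was at 57.8, 46.5, 85.5 and 72.2 per 1000000 in columella-like barcodes, against 60.5, 24.6, 43.9 and 98.9 in the others, so it was below 1-fold in pWER:GFP and pSCR:GFP and 1.89-fold and 1.95-fold higher in pCORTEX:GFP and PET111. Its share of plastid UMIs was 1.71%, 1.46%, 2.46% and 1.62% there, against 4.59%, 3.20%, 4.30% and 5.98%, with a mean log2 ratio of -1.30 ± 0.45 (SD, n = 4 libraries). No other of the 71 genes had a lower mean ratio of shares in columella-like barcodes.

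Lists of nuclear genes for plastid functions were set beside these values. Starch synthesis genes, 16 enzymes and transporters that make starch in plastids, summed to 489, 477, 355 and 440 UMIs per 1000000 nuclear UMIs in columella-like barcodes, against 91.2, 82.9, 101 and 110 in the others. They were 3.51-fold to 5.76-fold higher. The plastid transcription machinery, 23 genes that include sigma factors and proteins bound to the plastid polymerase, was 1.81-fold to 2.35-fold higher, and 14 nuclear-encoded plastid ribosomal proteins were 1.55-fold to 2.41-fold higher. Nuclear photosynthesis genes, 29 genes of antenna proteins and photosystem subunits, were lower in pCORTEX:GFP and PET111, at 0.59-fold and 0.63-fold, and higher in pWER:GFP and pSCR:GFP, at 1.45-fold and 1.58-fold, from 81 to 151 UMIs.

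**Figure D4:**
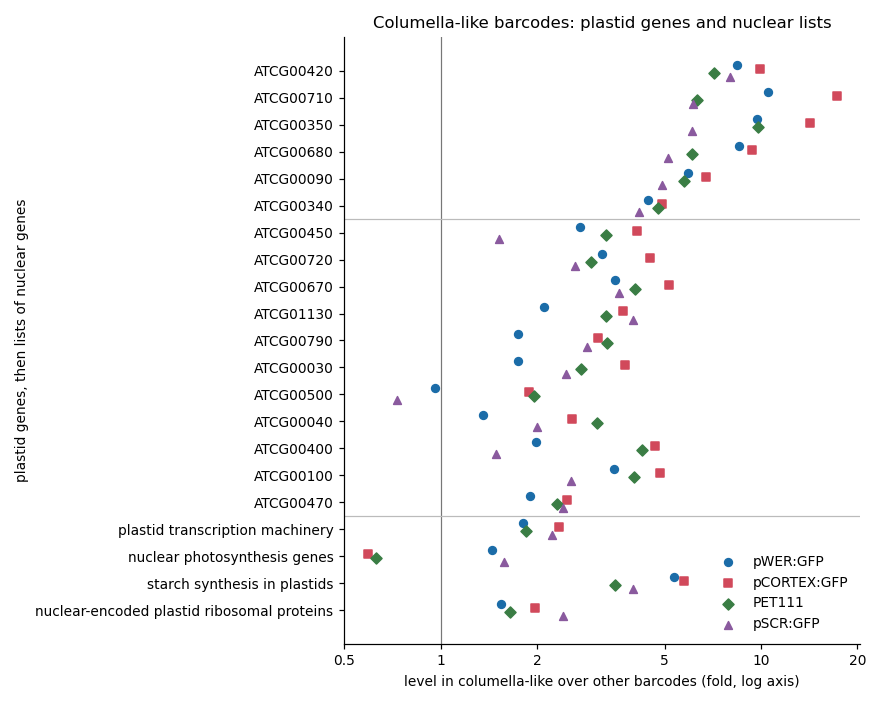
Level in columella-like barcodes over the other clustered barcodes outside the organelle-rich clusters (x axis, fold on a log scale), with 1 point per library, for the 6 plastid genes with the highest smallest fold, the 11 leading plastid genes and the 4 lists of nuclear genes. ATCG00500 lies between 0.73 and 1.95, and starch synthesis genes between 3.51 and 5.76.

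Some classes had lower summed plastid levels than the rest of their libraries. Hair cell-like barcodes, the root hair lineage, had 1190, 390, 716 and 1117 plastid UMIs per 1000000 nuclear UMIs, 0.40-fold to 0.79-fold of the rest. Non-hair cell-like barcodes were at 0.52-fold to 0.76-fold, and root cap-like barcodes, the outer tissue that is shed around the columella, at 1125, 643, 875 and 1399 per 1000000, 0.64-fold to 0.73-fold. These 3 classes were below the rest in all 4 libraries in summed level, but the medians of hair cell-like barcodes were above the rest in pWER:GFP and pSCR:GFP, at 1061 and 1178 against 808 and 902 per 1000000. Root cap-like clusters were not alike. In pWER:GFP 1 of them, with 528 barcodes, had 1873 per 1000000, above the 1493 of the whole library, and the others had 491 to 667. PBS3, PUB54 and FMO1 were among the 10 first genes of a cluster of 452 barcodes in pCORTEX:GFP, at 636, and of 490 in PET111, at 881. The unnamed cluster of 313 barcodes in pCORTEX:GFP, at 3053, shared JAL33 with root cap-like clusters of PET111 and pSCR:GFP. It is not counted in the class, so the root cap-like level depends on the naming. Under the alternative settings the log2 ratio of non-hair cell-like barcodes stayed below 0. That of hair cell-like barcodes reached 0.39 in pWER:GFP and 0.38 in pSCR:GFP, and that of root cap-like barcodes 0.32 in pCORTEX:GFP. Clusters named replicating-like were led by histone genes in pCORTEX:GFP and pSCR:GFP, at 551 and 1850 per 1000000, but by GSTF2 and CYP71A13 in PET111, at 569, where the rest had 1579. In pWER:GFP 1 such cluster was led by CYP706A1 and GSTF2, at 1275, another by AN3, at 1567, and the largest, of 434 barcodes, by AT3G41768, at 496. The replicating-like class is therefore not compared. Endodermis-like, cortex-like, xylem-like, dividing-like, stele and pericycle-like and phloem-like classes were above the rest in some libraries and below it in others.

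The phloem-like class differed most between libraries. It had 5843 plastid UMIs per 1000000 nuclear UMIs in PET111, 4.63-fold above the rest, while pWER:GFP, pCORTEX:GFP and pSCR:GFP had 1195, 968 and 1358, between 0.71-fold and 1.07-fold. The single cluster of 270 barcodes in PET111 had 12 phloem markers raised, but SIAR1 and LAC1 were its first genes by fold, and its mitochondrial share was 8.45%. Clusters that shared AT2G44300 and AT3G45700 with it among their 10 first genes were unnamed or stele and pericycle-like elsewhere, with 2742 per 1000000 in pWER:GFP, 3210 in pCORTEX:GFP and 3253 in pSCR:GFP, each among the 4 highest clusters of its library. Names therefore cover different clusters in different libraries, and class values are not compared between lines.

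**Figure D5:**
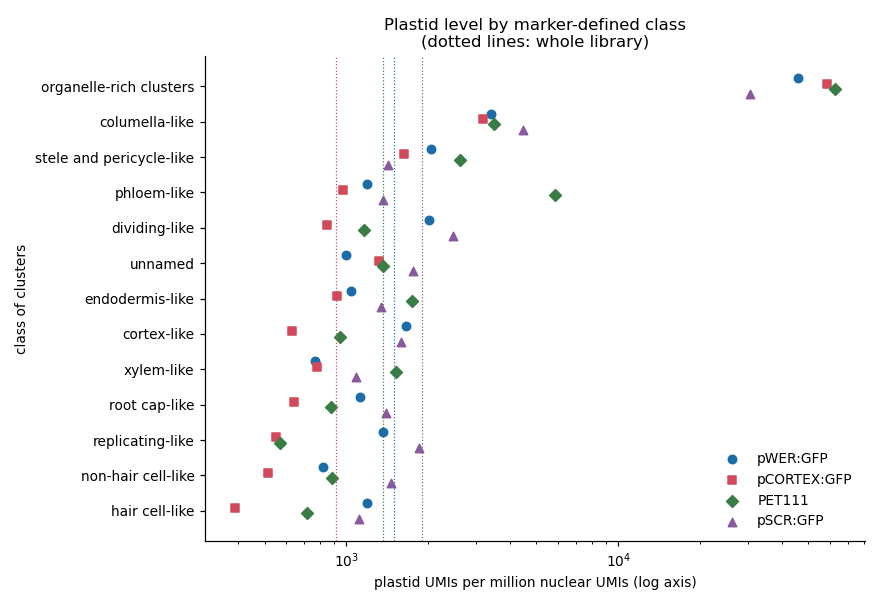
Plastid UMIs per 1000000 nuclear UMIs (x axis, log scale) for each class of clusters (y axis), with 1 point per library and dotted lines at the level of the whole library. Organelle-rich clusters lie between 30379 and 62738, columella-like barcodes between 3186 and 4467, and hair cell-like barcodes between 390 and 1190.

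Plastid genes varied together across barcodes. As ln(1 + UMIs per 10000 nuclear UMIs), the 45 pairs of the 10 leading genes had a mean Pearson correlation of 0.546 for pWER:GFP, 0.564 for pCORTEX:GFP, 0.537 for PET111 and 0.564 for pSCR:GFP, over 9813, 11731, 9745 and 10534 barcodes. Single pairs ranged between 0.334 and 0.718. The highest pair was ATCG00720 with ClpP in pWER:GFP and pCORTEX:GFP, at 0.679 and 0.710, ATCG00030 with ATCG00790 in PET111 at 0.718, and ClpP with ATCG00790 in pSCR:GFP at 0.674. The lowest pair involved ATCG00450 in 3 of 4 libraries. The points share 1 library and the same nuclear UMIs as denominator, so these correlations are descriptions. Restricted to barcodes with at least 20000 nuclear UMIs, the mean over libraries was 0.584 ± 0.0821, and with at most 10% organelle UMIs it was 0.353 ± 0.114 (SD, n = 4 libraries). The direction in the deep barcodes differed between libraries. There the mean pair correlation was higher than over all barcodes in pWER:GFP and pSCR:GFP, at 0.665 and 0.644. It was lower in pCORTEX:GFP and PET111, at 0.504 and 0.524.

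Each leading gene also followed the sum of the other plastid genes. ClpP had a correlation of 0.647 to 0.725 with that sum in the 4 libraries and 0.761 to 0.838 in deep barcodes, and ATCG00720 had 0.634 to 0.701 and 0.765 to 0.785. ATCG00450 spread most, with 0.425 to 0.677. ATCG00500 was at 0.588 to 0.655 and, in deep barcodes, at 0.578 to 0.663. The summed plastid level correlated with the summed mitochondrial level at 0.349 for pWER:GFP, 0.569 for pCORTEX:GFP, 0.531 for PET111 and 0.347 for pSCR:GFP. That was below the mean pair correlation of plastid genes in pWER:GFP, PET111 and pSCR:GFP, and slightly above it in pCORTEX:GFP. The measures are unlike, since the first correlates sums and the second single genes. In barcodes of at least 20000 nuclear UMIs the order of the means over libraries was reversed, as given below, so no closer relation among plastid genes is read from it.

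Few nuclear genes followed the plastid level closely. In every library the 5 highest correlations, among 11753 to 13379 genes with a UMI in at least 5% of barcodes, belonged to the chromosome 2 stretch that copies the mitochondrial genome. AT2G07725 was first in all 4, at 0.472 for pWER:GFP, 0.638 for pCORTEX:GFP, 0.651 for PET111 and 0.455 for pSCR:GFP. The others were AT2G07708, AT2G07698 and AT2G07727 in all 4 libraries, AT2G07671 in 3 and AT2G07718 in PET111. Whether these genes followed the plastid or the mitochondrial sum more closely differed between libraries. In PET111 all 5 followed the plastid sum more closely, with AT2G07725 at 0.651 against 0.559 for the mitochondrial sum. In every other library all 5 followed the mitochondrial sum more closely. In pWER:GFP this ranged from AT2G07671, at 0.675 against 0.427 for the plastid sum, to AT2G07708, at 0.458 against 0.450. Reads of the mitochondrial genome and of its nuclear copy cannot be told apart in these counts.

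At the lower end the values were small. UPI, a protease inhibitor, was among the 5 lowest in 3 libraries, at -0.132 in pWER:GFP, -0.158 in PET111 and -0.134 in pSCR:GFP. The polyubiquitin gene UBQ3 was so in pWER:GFP and pSCR:GFP, at -0.133 and -0.181, ATG8H, of the autophagy pathway, in pWER:GFP at -0.150, and the calmodulin genes CAM2 and CAM3 in pCORTEX:GFP at -0.194 and -0.199. GSTU19, a glutathione transferase, had -0.141 in pSCR:GFP and ERD15 -0.164 in PET111. AT4G32470 and AT5G64400 were shared by pCORTEX:GFP and PET111, at -0.232 and -0.209 in the first and -0.168 and -0.165 in the second, AT5G10980 by pWER:GFP and pSCR:GFP at -0.131 and -0.138. AT2G15830, AT4G29480, AT1G25275 and AT1G07590 made up the rest, between -0.134 and -0.192.

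The nuclear lists showed no strong relation to the plastid level across barcodes. Median correlations of starch synthesis genes were 0.0197, 0.0325, -0.0130 and 0.0167 in the order of batches, and of the transcription machinery 0.0205, 0.0062, 0.0102 and 0.0186. Medians over all genes were 0.0138, -0.0038, -0.0084 and 0.0150. Nuclear-encoded plastid ribosomal proteins had medians between -8.6e-05 and 0.0302. The starch branching enzyme gene SBE2.1 was the highest of its list in every library, at 0.0925, 0.0906, 0.0658 and 0.0854. GUN1, which relays signals of plastid state to the nucleus, led the transcription list in pCORTEX:GFP and PET111 at 0.0575 and 0.0502, and PAP8, a protein bound to the plastid polymerase, in pWER:GFP and pSCR:GFP at 0.0388 and 0.0362. Of 29 nuclear photosynthesis genes 1, 8, 2 and 1 reached the 5% limit, so that list was mostly too sparse to describe. In such sparse counts weak correlations are no finding.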

How the data were processed

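Per the labels' protocols, protoplasts of cut root tips were run on 10x Chromium 3′ v3.1 chemistry. The authors deposited 1 table of UMI counts per library, made with Cell Ranger 7.1.0 and Seurat (version not given) per the submitters' processing notes, with no normalization seen in the values. Genome build, annotation and cell filter are not given in the sources used here. All deposited barcodes were kept, with 668, 716, 699 and 525 UMIs as the lowest totals. The members and lists were chosen with earlier results of these data known.

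Shares were sums of plastid counts over sums of all counts. Levels were plastid UMIs per 1000000 nuclear UMIs. Intervals (95%, exact Clopper-Pearson for shares and exact Poisson for levels) cover counting error only. Barcodes with at least 500 nuclear UMIs (176 in pCORTEX:GFP and 156 in PET111 had fewer) were clustered in each library on nuclear genes with scanpy 1.11.5 and igraph 0.11.9 (2000 variable genes, 30 components, 15 neighbours, Leiden resolution 1), with numpy 2.4.6 and scipy 1.17.1. Clusters were named for a class where at least 3 of its markers, from 11 lists of 90 genes in all, were 2-fold higher with at least 10 UMIs and the list's mean log2 ratio was at least 0.5, and stayed unnamed otherwise, where its 10 first genes held more markers of another class, or where they held none of its own and the cluster was shallow, as 26.3% to 44.7% of barcodes did outside the organelle-rich clusters. A name could thus stand with no marker among the first genes. A doublet caller marked 1, 0, 0 and 0 barcodes and so did not work, and doublets were kept. Clusters with at least 3 of their 10 first genes in the chromosome 2 stretch (184 genes, 0.118% to 0.162% of UMIs) were called organelle-rich, a rule set after seeing the data. Gene names came from RefSeq for 32548 of 32834 rows, and role groups of plastid genes could not be made because the table used here pairs few of their codes with a name. Named nuclear genes were the 5 highest and 5 lowest correlations per library, and plastid genes the 10 with most UMIs, with others said to be picked later: ATCG00170, ATCG00180, ATCG00190, ATCG00220, ATCG01020, ATCG00350, ATCG00420, ATCG00710 and ATCG00680. The scripts were tested on simulated data. With 1 library per line there is no test between lines, and the smallest p that 4 libraries allow in an exact two-sided sign-flip test within libraries is 0.125, so none is given.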

Additional observations from a re-analysis of the deposited data

How the results depend on the processing

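Each value is a mean over the 4 libraries, and for those that moved the cause was not tested. The plastid share of 0.139% was 0.317% as a mean of barcode shares and 0.329% after thinning to 1000 UMIs. Both settings give every kept barcode the same weight, so they are not separate checks. Under the other 5 settings it moved by less than the SD between libraries, and it was 0.123% to 0.155% with each library left out in turn. The log2 ratio of shallow over deep barcodes, 2.76, was 1.89 with ranges of total UMIs, 0.72 with at most 10% organelle UMIs, 0.30 from medians and 1.80 without the organelle-rich clusters, and 2.49 to 2.99 with each library left out. From medians it reversed in pWER:GFP, to -0.048, and in pSCR:GFP, to -0.39. The columella-like log2 ratio of 1.44 was 2.26 from medians of barcodes, and 1.299 to 1.52 with each library left out. In pSCR:GFP it reversed to -0.0038 at resolution 0.5 and was 0.56, against 1.25, with at most 10% organelle UMIs, and in PET111 it was 3.61, against 1.45, at resolution 0.5. The mean pair correlation of leading genes, 0.553, was 0.662 on raw UMIs, 0.468 as Spearman's, 0.584 in barcodes of at least 20000 nuclear UMIs, 0.353 with at most 10% organelle UMIs, 0.482 without the organelle-rich clusters and 0.367 after thinning, and 0.549 to 0.558 with each library left out. The correlation of plastid with mitochondrial level, 0.449, was 0.717 in barcodes of at least 20000 nuclear UMIs and 0.227 with at most 10% organelle UMIs, and 0.409 to 0.483 with each library left out. Settings that concern the organelle-rich clusters or shared barcodes, and medians of class levels, were chosen after seeing the data. No paired analysis was possible because lines had 1 library each and share no further numbered samples, while shallow over deep and columella-like over the rest are already ratios within each library. The median barcode had 3 to 8 plastid UMIs, which limits any statement on single barcodes.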

Other observations

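Without the genes of the chromosome 2 stretch and without the organelle-rich clusters, a setting chosen after seeing the data, the highest correlation of a nuclear gene with the plastid level was 0.188 for pWER:GFP, 0.273 for pCORTEX:GFP, 0.193 for PET111 and 0.258 for pSCR:GFP. AT2G01008 was among the 5 highest in all 4 libraries, at 0.182, 0.273, 0.193 and 0.258. ABCC2, a vacuolar transporter of the ABC family, was among them in pWER:GFP and pSCR:GFP, at 0.188 and 0.215, as was AT2G22795, at 0.186 and 0.223.

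At the lower end of the clusters, 156 dividing-like barcodes of pCORTEX:GFP had 208 plastid UMIs per 1000000 nuclear UMIs and a median of 0. Root cap-like clusters with BGLU35 first and RNS3 among their 10 first genes differed between libraries. They had 491 per 1000000 in pWER:GFP, 696 in the pCORTEX:GFP library, 1500.1 in the PET111 library and 797 in pSCR:GFP, of which the PET111 value was above that of its whole library, 1361. These clusters were picked after their values were seen.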
